A study of Mus musculus with 2 samples.

Results

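The 10 genes described here encode core parts of the Notch pathway: the receptors Notch1, Notch2 and Notch3, the ligands Jag1 and Dll1, the DNA-binding factor Rbpj, the co-activators Maml1, Maml2 and Maml3, and the target gene Hes5. They were taken by symbol from the 32285 mouse genes of the count tables, and all 10 were found. Maml2 was chosen by its ratio between the groups in granule neurons, the lowest in an earlier computation of the same data, and the others were added as genes of its pathway, so the Maml2 values in those nuclei are a description and not a test. The AAV-TAU group received an adeno-associated virus (AAV) carrying full-length, wild-type 2N4R human tau. The AAV-STOP group received a virus whose human MAPT transcript holds an early stop codon that prevents translation, so both groups carry the human transcript. Virus went into the cerebral ventricles on both sides at postnatal day 0, in C57BL/6J mice. At 6 weeks of age, nuclei from pooled hippocampi of 3 mice per group gave 1 single-nucleus RNA-seq library per group by 10x Genomics 3' chemistry. Each group therefore has 1 value, no test between groups was possible, and every interval below covers counting error only, not the spread between mice.

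Notch signalling passes between touching cells. A ligand of the Jagged or Delta-like family on one cell binds a Notch receptor on its neighbour, the receptor is cut by ADAM proteases and then by gamma-secretase, and its freed intracellular domain enters the nucleus. There it binds RBPJ, which otherwise recruits co-repressors, and a mastermind-like (MAML) protein joins the complex and brings in acetyltransferases so that Hes and Hey genes are transcribed. In the hippocampus the pathway is best known for keeping neural stem cells undifferentiated, and in blood vessels for the identity of mural cells.

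Maml2 lies on mouse chromosome 9 at 13297957 to 13709388 on the plus strand (GRCm38, GENCODE vM21) and spans 411 kb. Maml3 spans 419 kb of chromosome 3, Rbpj 191 kb of chromosome 5 and Notch2 137 kb of chromosome 3. Hes5, on chromosome 4 at 154960923 to 154962371, spans only 1.45 kb. The upstream sequences of Maml2, the gene with the largest number of UMIs behind its ratio, and of Hes5, the pathway's target among the 10, are shown because they can be searched for the core of the site that RBPJ binds. Each is the 250 bases before an annotated start (RefSeq, GRCm38.p6), 5′ to 3′ on the gene's own strand, and capitals mark TGGGAA or its reverse complement TTCCCA. The first Maml2 start is at the gene's 5′ end (chr9:13297708-13297957, plus strand), the second lies inside the gene (chr9:13662210-13662459, plus strand), and the Hes5 sequence is at chr4:154960673-154960922 on the plus strand.
Maml2 first start: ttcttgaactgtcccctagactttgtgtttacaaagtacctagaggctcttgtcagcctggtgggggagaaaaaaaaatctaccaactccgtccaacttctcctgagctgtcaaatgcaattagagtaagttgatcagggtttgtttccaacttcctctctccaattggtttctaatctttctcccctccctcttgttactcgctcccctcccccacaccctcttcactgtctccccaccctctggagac
Maml2 second start: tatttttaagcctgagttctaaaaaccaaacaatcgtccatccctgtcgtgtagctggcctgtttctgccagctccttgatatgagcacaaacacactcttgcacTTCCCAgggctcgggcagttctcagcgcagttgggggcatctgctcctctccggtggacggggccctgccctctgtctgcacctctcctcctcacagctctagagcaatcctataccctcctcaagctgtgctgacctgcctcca
Hes5: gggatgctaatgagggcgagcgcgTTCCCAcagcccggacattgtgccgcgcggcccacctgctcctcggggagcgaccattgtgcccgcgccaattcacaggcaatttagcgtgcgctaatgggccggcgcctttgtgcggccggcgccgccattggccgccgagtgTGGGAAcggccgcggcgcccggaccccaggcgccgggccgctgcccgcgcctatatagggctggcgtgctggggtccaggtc
Hes5 had 2 matches, 1 on each strand, beginning 226 and 82 bases before its start, and the second Maml2 start had 1, beginning 145 bases before it. The first Maml2 start had no match, which says only that these letters are not in that window. Over windows of 300 bases (250 before to 50 after a start), 25.6% of 32851 annotated promoters held at least 1 match on either strand and 3.79% held 2 or more. Of the 13 promoters of the 10 genes, 5 held a match. The others with a match were Maml3 and both promoters of Rbpj, which overlap and share 1 match.

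There were 19596 barcodes with 109428807 UMIs in the AAV-TAU library (unique molecular identifiers, each counting 1 captured RNA molecule), against 20265 barcodes with 130252240 UMIs in the AAV-STOP library. After filtering and removal of marked doublets, 17408 AAV-TAU nuclei (median 4940.5 UMIs) and 17755 AAV-STOP nuclei (median 5585) remained. The libraries shared 116 barcode sequences. Median mitochondrial shares were 0.282% in AAV-TAU and 0.173% in AAV-STOP. Clusters were given names only from marker genes, written as a cell type with "-like". Of the 17 named classes, 14 had 100 or more nuclei in both libraries and were compared, while 17.7% of AAV-TAU and 16.6% of AAV-STOP nuclei stayed unnamed. Microglial nuclei were divided unevenly: the named class held 562 AAV-TAU and 189 AAV-STOP nuclei, and 4 unnamed clusters whose best match was microglia held 36 AAV-TAU and 254 AAV-STOP nuclei. A level is given as CPM (counts per 1e6), the share of a gene in all UMIs summed over a class in 1 library, with an exact 95% Poisson interval where printed. Levels are compared across classes within a gene and not between genes, since the UMIs captured depend on transcript structure. A ratio is CPM in AAV-TAU over CPM in AAV-STOP with an exact 95% interval, and a difference is called past 1.2-fold in genes with at least 100 UMIs over both libraries and 20 CPM in the higher one. In granule-like neurons 741 of 7075 genes were higher in AAV-TAU by 1.2-fold or more (10.5%) and 29 were lower (0.41%). With the median gene set equal between libraries, these counts were 513 and 91. Mouse Mapt stood at 244 CPM in AAV-TAU and 238 CPM in AAV-STOP granule-like neurons, and it does not check the labels because both viruses carry a MAPT transcript.

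Maml2 was measured most strongly in oligodendrocyte precursor-like nuclei, granule-like neurons and astrocyte-like nuclei. In AAV-TAU its level was 1307 CPM in the precursors, 1095 CPM in granule-like neurons and 1095 CPM in astrocyte-like nuclei, against 1299, 1499 and 1013 CPM in AAV-STOP. The order of these 3 classes therefore differed between libraries: granule-like neurons were above the precursors in AAV-STOP, below them in AAV-TAU, and level with astrocyte-like nuclei in AAV-TAU within their intervals. A middle range followed, with 541 CPM in AAV-TAU and 611 CPM in AAV-STOP in microglia-like nuclei, 503 CPM in AAV-TAU and 435 CPM in AAV-STOP in fibroblast-like nuclei, and 475 CPM in AAV-TAU and 465 CPM in AAV-STOP in newly formed oligodendrocyte-like nuclei. Cajal-Retzius-like neurons had 485 CPM in AAV-TAU, inside this range, and 895 CPM in AAV-STOP, above it. Intervals of neighbours in this range overlapped in AAV-TAU. Among neurons the level spread over more than an order of magnitude. Immature neuron-like nuclei, the youngest cells of the granule lineage, had 286 CPM in AAV-TAU and 253 CPM in AAV-STOP. CA2-like neurons had 170 CPM in AAV-TAU and 153 CPM in AAV-STOP, CA3-like neurons 88.0 CPM in AAV-TAU and 117 CPM in AAV-STOP, inhibitory neuron-like nuclei 52.2 CPM in AAV-TAU and 50.9 CPM in AAV-STOP, and CA1-like neurons 31.3 CPM in AAV-TAU and 33.2 CPM in AAV-STOP. The lowest of the 14 classes was the subicular or cortical excitatory-like one, with 18.2 CPM in AAV-TAU and 29.3 CPM in AAV-STOP. Mature oligodendrocyte-like nuclei, at 65.3 CPM in AAV-TAU and 70.9 CPM in AAV-STOP, stood far below their precursors.

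**Figure D1:**
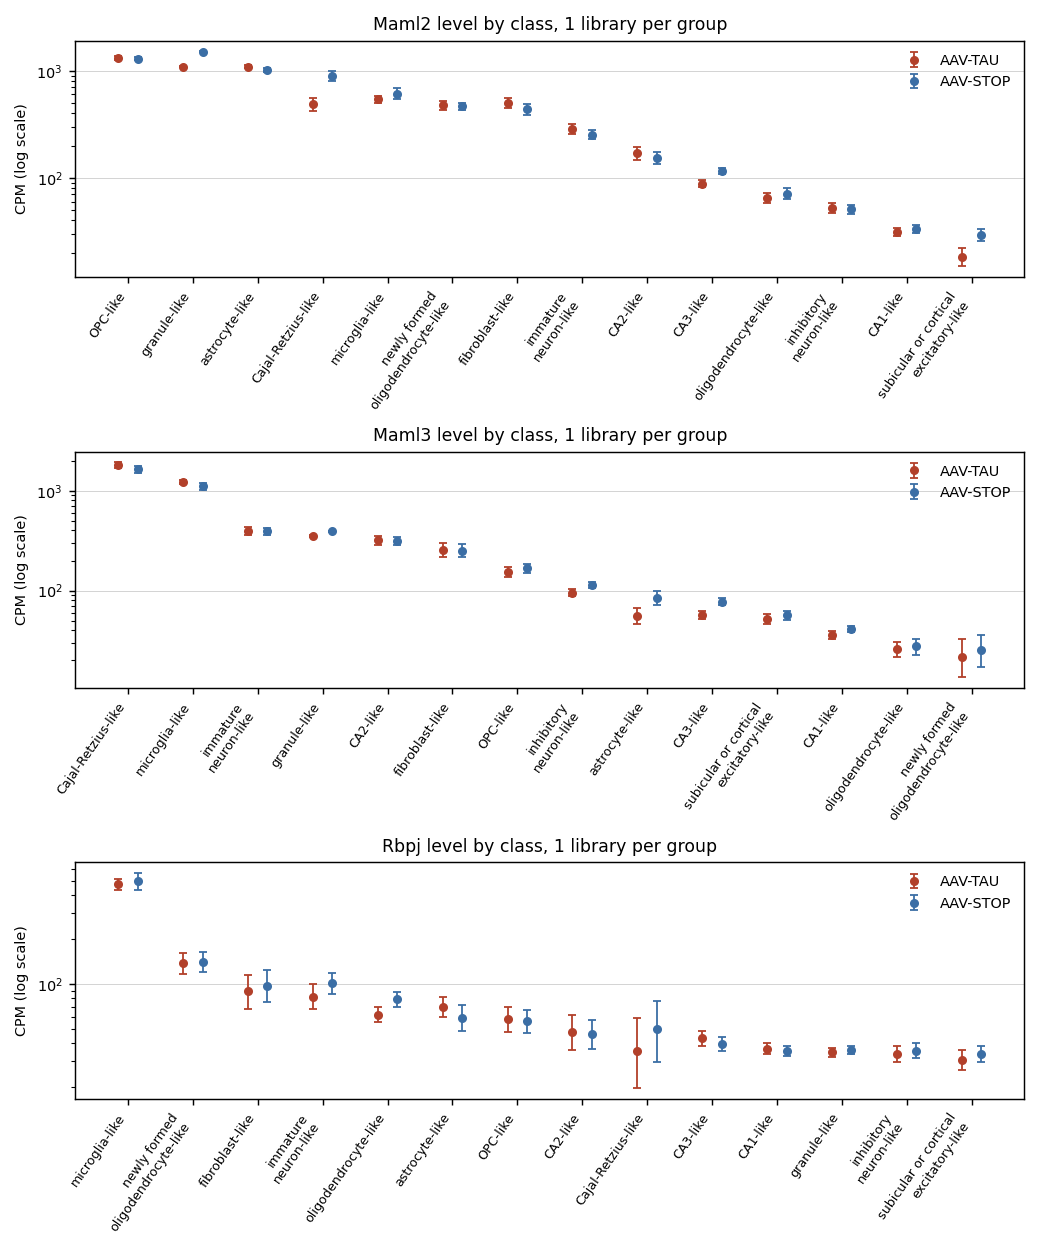
Levels of Maml2, Maml3 and Rbpj (CPM, log axis) in 14 classes, with AAV-TAU (left, red) beside AAV-STOP (right, blue); bars are exact 95% Poisson intervals from 1 library per group, and OPC stands for oligodendrocyte precursor. Maml2 in granule-like neurons stood at 1095 CPM in AAV-TAU and 1499 CPM in AAV-STOP, while in oligodendrocyte precursor-like nuclei it was 1307 CPM in AAV-TAU and 1299 CPM in AAV-STOP.

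In granule-like neurons, the excitatory cells of the dentate gyrus, Maml2 gave 24869 UMIs over 4237 AAV-TAU nuclei and 45054 UMIs over 5287 AAV-STOP nuclei. The level was 1095 CPM (1081 to 1108) in AAV-TAU, against 1499 CPM (1486 to 1513) in AAV-STOP, a ratio of 0.730 (0.719 to 0.742). On the log2 scale with 5 CPM added to both levels, the difference was -0.45, beside a median of 0.05 over all 7075 genes that passed the minimum. It ranked second lowest of these genes in the classes built here, after the ubiquitin ligase gene Mid1 at -0.47, with Ubash3b next at -0.37. Because the gene was picked for this value, the rank carries no weight as support. The ratio was 0.723 among nuclei with at most 0.2% mitochondrial UMIs (1522 AAV-TAU and 3040 AAV-STOP nuclei), as low as over all granule-like nuclei. Over the 447 genes longer than 300 kb, a length class that holds Maml2, the median log2 difference was -0.07, and the lowest 2.5% lay below -0.25. Genes under 5 kb had a median of 0.29, so the median log2 difference was lower in the longer genes of this class. The summed level of the 6 granule markers was 3690 CPM in AAV-TAU and 3812 CPM in AAV-STOP, and Prox1, the transcription factor that defines granule neurons, stood at 341 CPM in AAV-TAU and 333 CPM in AAV-STOP.

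The lower level was present in all 4 finer clusters of granule-like neurons, each with its own leading genes. These clusters divide largely the same nuclei in which Maml2 was picked, so their values and ranks describe it and give no separate support. Nuclei led by Stk32b and Scn9a had 970 CPM in AAV-TAU and 1408 CPM in AAV-STOP, a ratio of 0.688 (0.668 to 0.709). Nuclei led by Stxbp6 had 1115 CPM in AAV-TAU and 1509 CPM in AAV-STOP with a ratio of 0.739 (0.716 to 0.762), and those led by Slc26a10 had 1239 CPM in AAV-TAU and 1656 CPM in AAV-STOP with a ratio of 0.748 (0.728 to 0.769). The smallest difference was in nuclei led by Mylk3 and Trpc6, at 1065 CPM in AAV-TAU and 1395 CPM in AAV-STOP, a ratio of 0.763 (0.733 to 0.795). Across all genes of each cluster, Maml2 ranked 1 from the lowest in nuclei led by Stk32b, 7 in those led by Stxbp6, 5 in those led by Slc26a10 and 54 in those led by Mylk3. Per nucleus the whole distribution lay lower. Thinned to 2000 UMIs each, 4212 AAV-TAU granule-like nuclei held a mean of 2.17 Maml2 UMIs, and 674 of them (16%) held none. The 5282 AAV-STOP nuclei held a mean of 2.93, and 8.75% held none. Without thinning, 95.6% of AAV-TAU and 98.4% of AAV-STOP granule-like nuclei had at least 1 Maml2 UMI, at median depths of 5134 UMIs in AAV-TAU and 5373 UMIs in AAV-STOP. In CA1-like neurons, where Maml2 was low, the thinned shares with a UMI were 4.79% in AAV-TAU and 5.95% in AAV-STOP. The same CA1-like shares without thinning were 15.3% in AAV-TAU and 17.4% in AAV-STOP, at median depths of 7065.5 UMIs in AAV-TAU and 7431 UMIs in AAV-STOP. In every finer cluster the AAV-TAU share of nuclei with 0 UMIs was above the AAV-STOP share, at 19.9% in AAV-TAU and 10.5% in AAV-STOP nuclei led by Stk32b and at 11% in AAV-TAU and 5.72% in AAV-STOP nuclei led by Slc26a10.

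**Figure D2:**
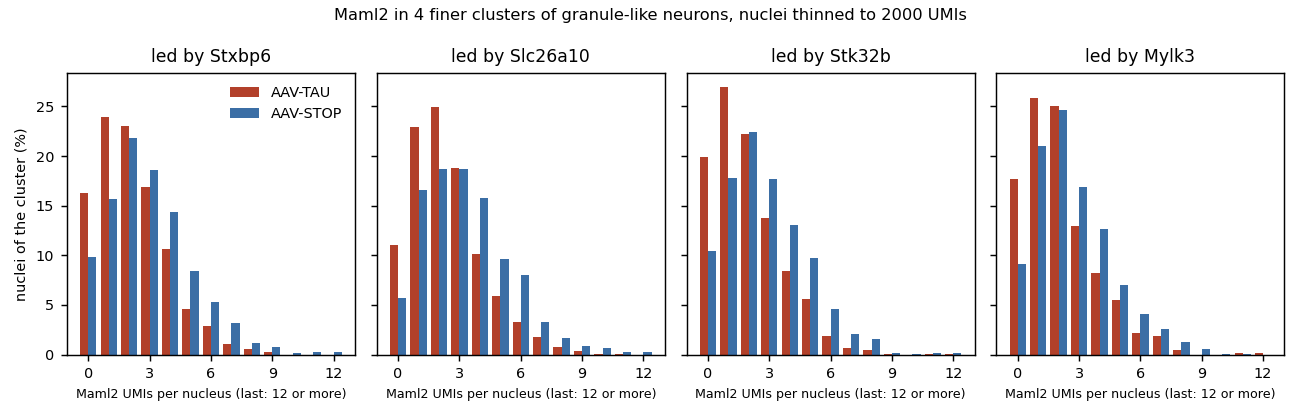
Share of nuclei (percent, vertical) by number of Maml2 UMIs per nucleus (horizontal, each nucleus thinned to 2000 UMIs) in 4 finer clusters of granule-like neurons, titled by a leading gene, with AAV-TAU bars left of AAV-STOP bars. In every panel AAV-TAU has taller bars at 0 and 1 UMI and shorter bars at 4 and above up to 8; over all granule-like neurons 16% of AAV-TAU and 8.75% of AAV-STOP nuclei had 0.

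Maml2 was also lower past 1.2-fold in 3 other classes. CA3-like neurons had 651 UMIs (88.0 CPM) in AAV-TAU and 921 UMIs (117 CPM) in AAV-STOP, a ratio of 0.753 (0.680 to 0.834), where 2.34% of genes were lower by this much. In this class the 6 granule markers summed to 193 CPM in AAV-TAU and 181 CPM in AAV-STOP, while its own 7 markers summed to 2556 CPM in AAV-TAU and 2665 CPM in AAV-STOP, with none higher in AAV-TAU. The part of these in the Maml2 value was not tested. Subicular or cortical excitatory-like nuclei had 104 UMIs (18.2 CPM) in AAV-TAU and 214 UMIs (29.3 CPM) in AAV-STOP, a ratio of 0.623 (0.488 to 0.791), against 2.28% of genes. Here the 6 granule markers summed to 333 CPM in AAV-TAU and 331 CPM in AAV-STOP, with 3 of 6 higher in AAV-TAU. Among these markers, Glis3, a zinc finger factor, was at 701 CPM in AAV-TAU and 699 CPM in AAV-STOP in granule-like neurons. In the subicular or cortical excitatory-like class Glis3 stood at 7.54 CPM in AAV-TAU and 12.2 CPM in AAV-STOP. There were 2.42 Maml2 UMIs per Glis3 UMI in AAV-TAU and 2.40 in AAV-STOP in that class, from 43 and 89 Glis3 UMIs. Granule-like neurons had 1.56 in AAV-TAU and 2.15 in AAV-STOP. CA3-like neurons had 20.3 in AAV-TAU and 20.5 in AAV-STOP, from 32 and 45 Glis3 UMIs. Per UMI of all 6 granule markers, Maml2 was at 0.297 in AAV-TAU and 0.393 in AAV-STOP granule-like neurons. In CA3-like neurons this was 0.457 in AAV-TAU and 0.646 in AAV-STOP. In the subicular or cortical excitatory-like class it was 0.055 in AAV-TAU and 0.088 in AAV-STOP. The part of granule RNA from outside these nuclei in the subicular value was not tested. Cajal-Retzius-like neurons had 205 UMIs (485 CPM) over 164 AAV-TAU nuclei and 345 UMIs (895 CPM) over 127 AAV-STOP nuclei, a ratio of 0.542 (0.454 to 0.646), against 21.1% of genes. In the same nuclei the 6 granule markers summed to 1993 CPM in AAV-TAU and 2354 CPM in AAV-STOP. Most of that sum was Pdzd2, at 1641 CPM in AAV-TAU and 1684 CPM in AAV-STOP. Prox1 was 37.9 CPM in AAV-TAU and 93.4 CPM in AAV-STOP. Glis3, from 10 AAV-TAU and 25 AAV-STOP UMIs, was 23.7 CPM in AAV-TAU and 64.9 CPM in AAV-STOP. Of the 6 markers, 5 were lower in AAV-TAU, and Calb1 was higher. Neuronal genes such as Dlgap2 (47.3 CPM in AAV-TAU against 345 CPM in AAV-STOP) and Csmd1 (121 CPM in AAV-TAU and 662 CPM in AAV-STOP) were the lowest of that class, and their part in the Maml2 value was not tested.

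In the other 10 classes Maml2 stayed within 1.2-fold. The most precise of these was the oligodendrocyte precursor-like class, where 2550 AAV-TAU and 2730 AAV-STOP UMIs gave a ratio of 1.01 (0.953 to 1.06). None of the 6 members that passed there was past 1.2-fold, beside 9.14% of genes lower and 19.8% higher. Astrocyte-like nuclei had 1095 CPM in AAV-TAU and 1013 CPM in AAV-STOP, a ratio of 1.08 (1.015 to 1.150), the only class with an interval above 1. Their 2 finer clusters differed: nuclei led by Atp13a4 and Gli3 had a ratio of 1.03 (0.964 to 1.11), and 156 AAV-TAU and 103 AAV-STOP nuclei led by Tnc had 1.32 (1.14 to 1.53). Immature neuron-like nuclei had a ratio of 1.13 (0.978 to 1.31), an interval that included 1. It was 0.992 with clustering at resolution 2 and 1.245 with thinned nuclei. Ratios were 0.942 (0.834 to 1.06) in CA1-like neurons and 1.03 (0.891 to 1.18) in inhibitory neuron-like nuclei. The inhibitory value joined unlike clusters. In nuclei led by Vip, Maml2 was 58.5 CPM in AAV-TAU and 101 CPM in AAV-STOP, a ratio of 0.578 (0.398 to 0.829). In nuclei led by Mctp2 and Hcrtr2 it was 133 CPM in AAV-TAU and 94.9 CPM in AAV-STOP, a ratio of 1.40 (1.08 to 1.83). With marked doublets kept, the CA1-like ratio was 0.798, and with nuclei thinned to 2000 UMIs the inhibitory neuron-like ratio was 0.793, both past 1.2-fold. The CA2-like ratio of 1.11 (0.917 to 1.34) was 0.826 with marked doublets kept and 1.65 with thinned nuclei, so no direction is read from it.

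Maml3, a co-activator of the same family, had its highest levels in Cajal-Retzius-like neurons, with 1802 CPM in AAV-TAU and 1640 CPM in AAV-STOP, and in microglia-like nuclei, with 1231 CPM in AAV-TAU and 1111 CPM in AAV-STOP. Immature neuron-like nuclei had 396 CPM in AAV-TAU and 394 CPM in AAV-STOP, and CA2-like neurons had 320 CPM in AAV-TAU and 315 CPM in AAV-STOP. In granule-like neurons 8042 AAV-TAU and 11781 AAV-STOP UMIs gave 354 CPM in AAV-TAU and 392 CPM in AAV-STOP, a ratio of 0.903 (0.878 to 0.929). That difference pointed the same way as for Maml2 but stayed within 1.2-fold. Maml3 was lower past 1.2-fold in CA3-like neurons, with 56.8 CPM in AAV-TAU and 77.0 CPM in AAV-STOP, a ratio of 0.737 (0.649 to 0.836). It was also lower in astrocyte-like nuclei, with 129 UMIs (55.8 CPM) in AAV-TAU and 139 UMIs (84.5 CPM) in AAV-STOP. That ratio was 0.661 (0.516 to 0.846), in a class where 12.8% of genes were lower by 1.2-fold or more. Among astrocyte-like genes longer than 300 kb, the lowest 2.5% lay below a log2 difference of -0.71, and Maml3 was at -0.56. In CA3-like neurons the same bound was -0.389, with Maml2 at -0.390 and Maml3 at -0.409. The part of gene length in these values was not tested. In the astrocyte-like cluster led by Tnc, Maml3 was 136 CPM in AAV-TAU and 261 CPM in AAV-STOP, and in the larger one led by Atp13a4 it was 38.5 CPM in AAV-TAU and 45.9 CPM in AAV-STOP. Some neuronal adhesion genes were also lower in astrocyte-like nuclei, such as Lingo2 (56.3 CPM in AAV-TAU against 136 CPM in AAV-STOP), and their part in the Maml3 value was not tested. The intervals lay below 1 but within 1.2-fold in CA1-like neurons (35.8 CPM in AAV-TAU against 41.2 CPM in AAV-STOP) and in inhibitory neuron-like nuclei (95.4 CPM in AAV-TAU and 114 CPM in AAV-STOP). Both calls changed with the setting. The CA1-like ratio of 0.869 was past 1.2-fold with marked doublets kept (0.821), with the mean of per-nucleus CPM (0.801) and with thinned nuclei (0.735). The inhibitory neuron-like ratio of 0.836 was past 1.2-fold under 5 of 9 settings, at 0.796 to 0.833. In the inhibitory cluster led by Col19a1 and Adarb2, Maml3 was 166 CPM in AAV-TAU and 231 CPM in AAV-STOP, a ratio of 0.720 (0.611 to 0.847). In the inhibitory cluster led by Mctp2 it was 60.9 CPM in AAV-TAU and 36.6 CPM in AAV-STOP, a ratio of 1.66 (1.101 to 2.540). Microglia-like nuclei were on the other side of 1, with a ratio of 1.11 (1.00 to 1.23). Their log2 difference was 0.01 among nuclei with 2000 or more UMIs and -0.02 with those nuclei thinned to 2000 UMIs, so no direction is read from it.

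Maml1, the third co-activator, was measured thinly: 313 AAV-TAU and 372 AAV-STOP UMIs in granule-like neurons gave 13.8 CPM in AAV-TAU and 12.4 CPM in AAV-STOP, under the minimum of 20 CPM. Its highest level was in microglia-like nuclei, at 50.7 CPM in AAV-TAU and 52.8 CPM in AAV-STOP. The only class where it passed the minimum was oligodendrocyte-like, with 22.4 CPM in AAV-TAU and 18.2 CPM in AAV-STOP. That ratio of 1.23 (0.907 to 1.67) was the single value of the 10 genes higher by 1.2-fold or more, in a class where 21.5% of genes were. It was 1.19 with the median gene set equal between libraries. An antisense gene, Gm26542, overlaps Maml1 and had 906 UMIs in AAV-TAU and 1019 in AAV-STOP, and whether the counting used strand is not given in the sources used here.

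Rbpj, the DNA-binding partner of all Notch receptors, was highest in microglia-like nuclei, with 538 UMIs (470 CPM) in AAV-TAU and 224 UMIs (493 CPM) in AAV-STOP. Newly formed oligodendrocyte-like nuclei followed with 138 CPM in AAV-TAU and 141 CPM in AAV-STOP, and the neuronal classes other than immature neuron-like and Cajal-Retzius-like ones lay between 30.7 and 47.4 CPM in AAV-TAU and between 33.8 and 45.9 CPM in AAV-STOP. In granule-like neurons, Rbpj was 34.6 CPM in AAV-TAU and 35.7 CPM in AAV-STOP, a ratio of 0.967 (0.881 to 1.06), an interval that included 1. CA1-like and CA3-like neurons had ratios of 1.03 (0.919 to 1.16) and 1.09 (0.929 to 1.28). In mature oligodendrocyte-like nuclei Rbpj was 62.2 CPM in AAV-TAU and 78.7 CPM in AAV-STOP, a ratio of 0.790 (0.673 to 0.927), where 7.8% of genes were lower by 1.2-fold or more. Among oligodendrocyte-like nuclei with at most 0.2% mitochondrial UMIs the ratio was 0.860, within 1.2-fold. Immature neuron-like nuclei had 82.2 CPM in AAV-TAU and 101 CPM in AAV-STOP, a ratio of 0.815 (0.631 to 1.05), where 12% of genes were lower by this much. That call ended under 3 of 9 other settings, with a highest ratio of 0.870. The microglia-like ratio was 0.955 (0.815 to 1.12), but 1.50 among nuclei with 2000 or more UMIs, which left 230 of 562 AAV-TAU and 172 of 189 AAV-STOP nuclei. In CA2-like neurons, from 54 AAV-TAU and 78 AAV-STOP UMIs, the ratio was 1.03 (0.717 to 1.48), and it was 0.632 with nuclei thinned to 2000 UMIs.

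Notch1 and Notch3 were found mainly outside mature neurons, while Notch2 was also measured in some of them. Notch1 was highest in astrocyte-like nuclei, with 79.2 CPM in AAV-TAU and 69.3 CPM in AAV-STOP, a ratio of 1.14 (0.899 to 1.46), and next in oligodendrocyte precursor-like nuclei, with 58.9 CPM in AAV-TAU and 53.3 CPM in AAV-STOP. In granule-like neurons it was 3.92 CPM in AAV-TAU and 4.43 CPM in AAV-STOP, and in CA1-like neurons 0.794 CPM in AAV-TAU and 1.14 CPM in AAV-STOP. Notch2 was highest in fibroblast-like nuclei, with 369 CPM in AAV-TAU and 406 CPM in AAV-STOP. None of the 4 members that passed in that class was past 1.2-fold, beside 21.6% of genes lower and 20.8% higher. The lowest gene of that class was Xist, with 3.08 CPM in AAV-TAU and 149 CPM in AAV-STOP. What this means for the fibroblast-like values was not tested. Astrocyte-like nuclei followed for Notch2, with 198 CPM in AAV-TAU and 185 CPM in AAV-STOP. The astrocyte-like nuclei led by Tnc carried more Notch2, 507 CPM in AAV-TAU and 363 CPM in AAV-STOP, than those led by Atp13a4, which had 131 CPM in AAV-TAU and 146 CPM in AAV-STOP. Notch2 passed the minimum in granule-like neurons, from 778 AAV-TAU and 1033 AAV-STOP UMIs. The level there was 34.2 CPM in AAV-TAU and 34.4 CPM in AAV-STOP, a ratio of 0.996 (0.907 to 1.09). It also passed in CA2-like neurons, with 43.0 CPM in AAV-TAU and 51.2 CPM in AAV-STOP, a ratio of 0.841 (0.580 to 1.21). Both classes lay above newly formed oligodendrocyte-like nuclei, which had 23.6 CPM in AAV-TAU and 19.7 CPM in AAV-STOP. Microglia-like nuclei had 145 CPM in AAV-TAU and 176 CPM in AAV-STOP, a ratio of 0.825 (0.628 to 1.09), where 17.4% of genes were lower by 1.2-fold or more, and 0.877 with marked doublets kept. The 6 border macrophage markers summed to 1318 CPM in AAV-TAU and 1843 CPM in AAV-STOP in this class, with 1 of 6 higher in AAV-TAU. Their part in the Notch2 value, and that of the microglial nuclei left unnamed, was not tested. Notch3, the receptor of vascular mural cells, stood in astrocyte-like nuclei at 12.6 CPM in AAV-TAU and 21.3 CPM in AAV-STOP, its highest level among the 14 classes. It was far higher in 2 vascular groups too small to compare: endothelial-like nuclei (38 in AAV-TAU and 17 in AAV-STOP) had 188 CPM in AAV-TAU and 208 CPM in AAV-STOP. Nuclei led by the smooth muscle genes Acta2 and Myh11 (12 nuclei in AAV-TAU and 11 in AAV-STOP) had 356 CPM in AAV-TAU and 406 CPM in AAV-STOP. The endothelial-like nuclei also held mural markers, with Pdgfrb at 441 CPM in AAV-TAU and 415 CPM in AAV-STOP, so the receptor cannot be placed in one vascular cell type here. Antisense genes overlap Notch1 and Notch3, with 1057 AAV-TAU and 1247 AAV-STOP UMIs for 0610009E02Rik and 705 UMIs in AAV-TAU and 779 UMIs in AAV-STOP for Gm17276, and such reads cannot be told apart if strand was not used.

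Both ligands were sparse, and each had its own place. Dll1 was highest in oligodendrocyte precursor-like nuclei, with 73 UMIs (37.4 CPM) in AAV-TAU and 94 UMIs (44.7 CPM) in AAV-STOP, a ratio of 0.837 (0.608 to 1.15). Its next level, in immature neuron-like nuclei, was 6.14 CPM in AAV-TAU and 9.05 CPM in AAV-STOP. Jag1 was highest among the 14 classes in fibroblast-like nuclei, with 55.4 CPM in AAV-TAU and 36.8 CPM in AAV-STOP, from 36 UMIs in AAV-TAU and 26 UMIs in AAV-STOP. In granule-like neurons Jag1 had 8.98 CPM in AAV-TAU and 9.75 CPM in AAV-STOP from 204 UMIs in AAV-TAU and 293 UMIs in AAV-STOP, while in CA1-like neurons it had 1.06 CPM in AAV-TAU and 0.925 CPM in AAV-STOP. The nuclei led by Acta2 had 404 CPM of Jag1 in AAV-TAU and 279 CPM in AAV-STOP. They also held endothelial markers, such as Flt1 at 875 CPM in AAV-TAU and 863 CPM in AAV-STOP. Neither Jag1 nor Notch3 can therefore be placed in one cell type within that group. Neither ligand could be compared between groups in neurons at this depth, since no neuronal class reached the minimum.

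Hes5, a repressor transcribed on Notch activation in neural stem and glial cells, passed the minimum in 2 classes. Astrocyte-like nuclei had 66 UMIs (28.6 CPM, 22.1 to 36.3) in AAV-TAU and 63 UMIs (38.3 CPM, 29.4 to 49.0) in AAV-STOP. The ratio of 0.746 (0.520 to 1.07) was past 1.2-fold with an interval that included 1, where 12.8% of genes were lower by as much. In these nuclei the 6 choroid plexus markers summed to 160 CPM in AAV-TAU and 407 CPM in AAV-STOP, and the 6 ependymal markers to 44.6 CPM in AAV-TAU and 4.86 CPM in AAV-STOP. The 8 astrocyte markers summed to 10659 CPM in AAV-TAU and 11803 CPM in AAV-STOP, with 2 of 8 higher in AAV-TAU. The part of these in the astrocyte-like values was not tested. The astrocyte-like nuclei led by Tnc had 12.1 CPM of Hes5 in AAV-TAU and 44.1 CPM in AAV-STOP from 5 UMIs in AAV-TAU and 13 UMIs in AAV-STOP, and those led by Atp13a4 had 32.1 CPM in AAV-TAU and 37.0 CPM in AAV-STOP. Oligodendrocyte precursor-like nuclei had 25.1 CPM in AAV-TAU and 28.1 CPM in AAV-STOP, a ratio of 0.895 (0.5998 to 1.3294). In granule-like neurons, where Maml2 was abundant, Hes5 stood at 1.321 CPM in AAV-TAU and 1.198 CPM in AAV-STOP. No class other than the astrocyte-like and precursor-like ones had Hes5 above 20 CPM among the 14 compared.

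**Figure D3:**
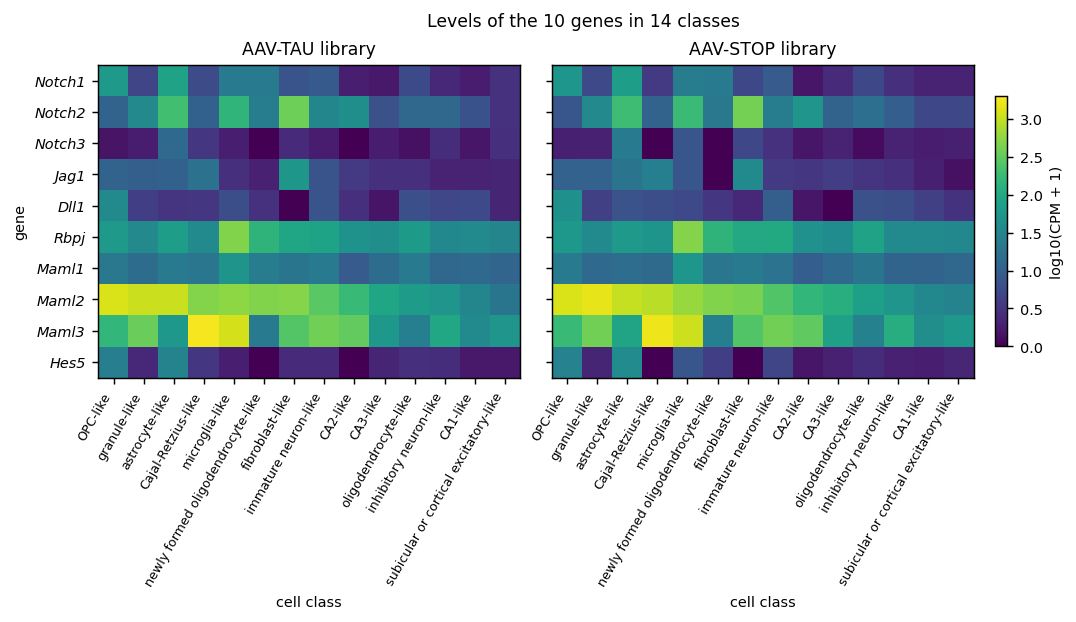
Level of each of the 10 genes (rows, log10(CPM + 1) as colour) in 14 classes (columns, ordered by Maml2 level), with the AAV-TAU library on the left and the AAV-STOP library on the right. Maml2 is bright in oligodendrocyte precursor-like, granule-like and astrocyte-like columns, Maml3 in Cajal-Retzius-like and microglia-like ones, while Hes5 is above 20 CPM only in astrocyte-like and precursor-like columns.

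Across the 10 genes and 14 classes, 51 of 140 gene and class pairs passed the minimum, with 10 lower (19.6%) and 1 higher (1.96%) past 1.2-fold and 40 within it. With each pair given the share of its own class, the average over all genes was 9.50% lower and 17.3% higher. The shares by class ran between 0.41% and 21.6% lower and between 10.5% and 21.7% higher, and the lower pairs include the Maml2 value that chose the gene. Since a pair could pass through the group where it was high, this count describes the measured pairs and not all members. The lower pairs were Maml2 in 4 classes, Maml3 in 2, Rbpj in 2, Hes5 in 1 and Notch2 in 1. The intervals of 7 of them lay wholly below 1: the 4 of Maml2, both of Maml3 and Rbpj in oligodendrocyte-like nuclei. In the granule-like class, which was used to pick Maml2, the other 3 members that passed had log2 differences of -0.15 (Maml3), -0.04 (Rbpj) and 0.00 (Notch2). In CA3-like neurons Maml2 and Maml3 were both lower, at -0.39 and -0.41, while Rbpj was at 0.11.

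**Figure D4:**
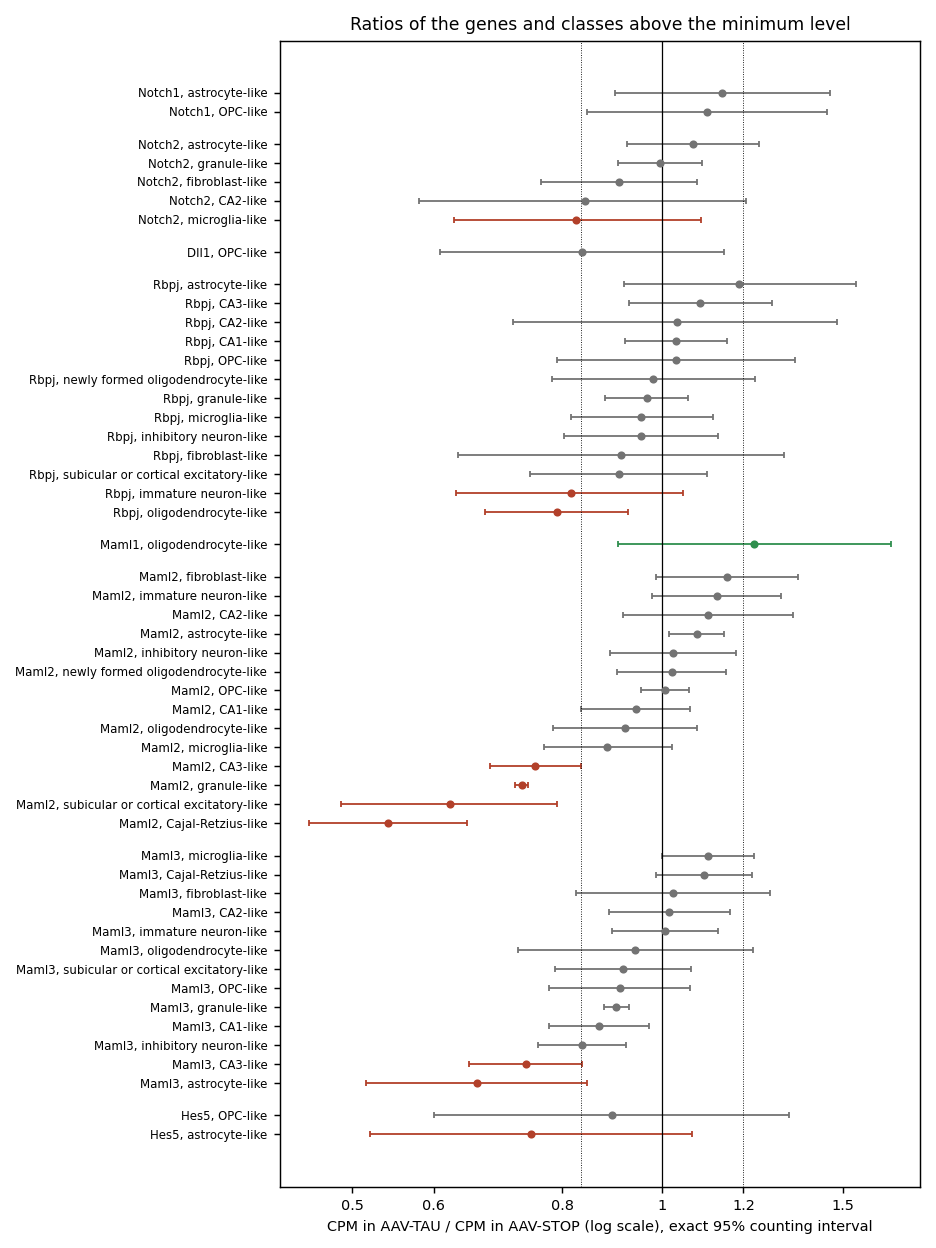
Ratio of CPM in AAV-TAU to CPM in AAV-STOP (log axis) for the 51 gene and class pairs above the minimum, with exact 95% counting intervals; red marks 10 pairs lower and green 1 pair higher by 1.2-fold or more (dotted lines), and grey marks the other 40. Maml2 in granule-like neurons has the narrowest interval, 0.719 to 0.742.

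The other genes of the pathway were read from a list of 67 genes in 8 roles. Of these, 32 passed the minimum in granule-like neurons. There 0 were lower and 2 were higher past 1.2-fold, beside 0.41% and 10.5% of all genes. The 2 were Snw1, a nuclear protein that joins the Notch complex, with 74.8 CPM in AAV-TAU and 62.1 CPM in AAV-STOP, and the co-repressor Ctbp1, with 27.6 CPM in AAV-TAU and 21.2 CPM in AAV-STOP. The median log2 difference of the 32 was 0.00, beside 0.05 over all genes of the class. None of the cleavage genes was past 1.2-fold in granule-like neurons, where 4 of 9 passed the minimum. In CA1-like neurons 35 passed, 0 were lower and 1 was higher: the co-repressor Tle4, with 71.7 CPM in AAV-TAU and 56.9 CPM in AAV-STOP, in a class where 0.465% of genes were lower and 10.7% higher. In CA3-like neurons 33 passed and 1 was lower, beside 2.34% of all genes. The lower one was the neuronal Notch ligand-like gene Dner, with 61.1 CPM in AAV-TAU and 87.1 CPM in AAV-STOP, a ratio of 0.702 (0.622 to 0.792). There 2 were higher against 13.1% of all genes, Snw1 with 64.1 CPM in AAV-TAU and 45.7 CPM in AAV-STOP and Hdac2, a deacetylase of co-repressor complexes, with 50.0 CPM in AAV-TAU and 41.6 CPM in AAV-STOP.

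Inhibitory neuron-like nuclei had 38 list genes above the minimum, with 0 lower and 2 higher, beside 1.91% and 13.1% of all genes. The higher ones were the gamma-secretase catalytic gene Psen2, with 20.1 CPM in AAV-TAU and 15.6 CPM in AAV-STOP, and Dtx1, a ubiquitin ligase of the pathway, with 20.2 CPM in AAV-TAU and 16.6 CPM in AAV-STOP. Astrocyte-like nuclei had 34 above the minimum, 3 lower and 6 higher, beside 12.8% and 21.7% of all genes. All 3 lower ones were listed as targets, of which 4 passed: Hes1, a repressor related to Hes5, with 46.7 CPM in AAV-TAU and 62.6 CPM in AAV-STOP, Id3, an inhibitor of differentiation, with 47.2 CPM in AAV-TAU and 68.1 CPM in AAV-STOP, and the repressor Bhlhe40 with 49.3 CPM in AAV-TAU and 66.3 CPM in AAV-STOP. The other target that passed, Sox9, was not lower, with 53.2 CPM in AAV-TAU and 51.1 CPM in AAV-STOP. Id3 and Bhlhe40 also answer to other pathways. Those with the largest higher differences were Ncstn, a gamma-secretase subunit (36.8 CPM in AAV-TAU against 22.5 CPM in AAV-STOP), Ctbp1 (38.1 CPM in AAV-TAU and 26.1 CPM in AAV-STOP) and Fbxw7, which marks the Notch intracellular domain for turnover (109 CPM in AAV-TAU and 85.1 CPM in AAV-STOP). In oligodendrocyte-like nuclei 32 passed, with Adam17 lower (31.2 CPM in AAV-TAU against 37.6 CPM in AAV-STOP) and 5 higher, beside 7.8% and 21.5% of all genes. Among the higher ones were the acetyltransferase Kat2a (26.1 CPM in AAV-TAU and 18.2 CPM in AAV-STOP) and Dtx3, a relative of Dtx1 (25.04 CPM in AAV-TAU and 17.97 CPM in AAV-STOP). Poglut1, which adds glucose to Notch receptors, was also higher there, with 40.6 CPM in AAV-TAU and 31.1 CPM in AAV-STOP. The median of the list lay within 0.05 of the median of all genes in each of the 6 classes on the log2 scale.

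**Figure D5:**
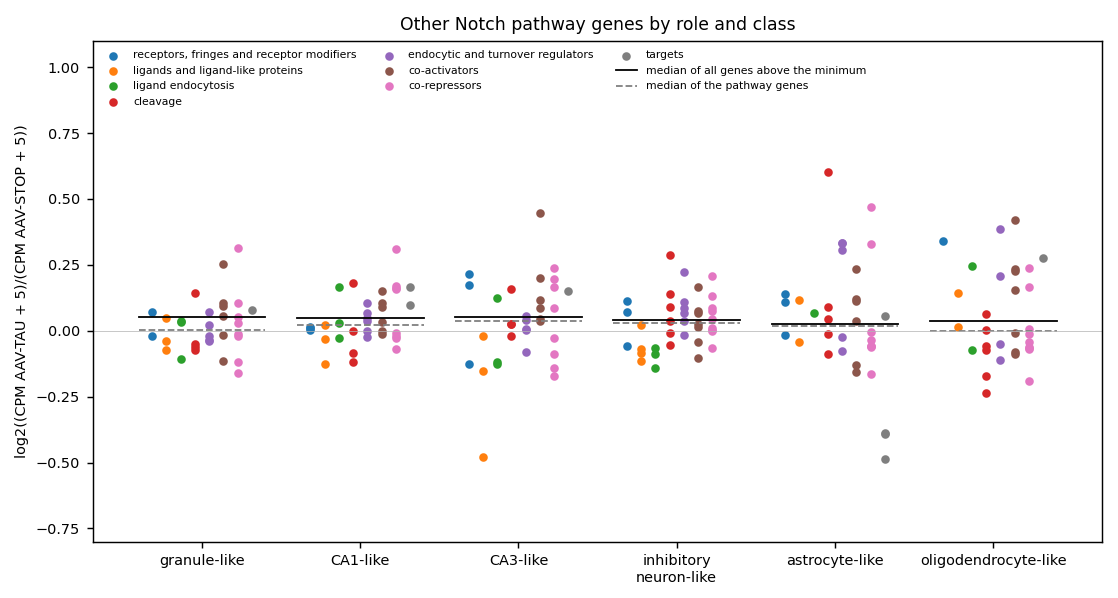
Log2 difference between AAV-TAU and AAV-STOP (5 CPM added to both) of the other Notch pathway genes above the minimum in 6 classes, coloured by role; solid lines are the median of all genes above the minimum and dashed lines the median of the pathway genes. In granule-like neurons the medians are 0.05 and 0.00. In astrocyte-like nuclei 3 of 4 targets lie between -0.49 and -0.39, and 1 lies above 0.

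The genes whose level across the 14 classes was most like that of Maml2 were found by Pearson's r within each library, over 8428 genes and taking the lower of the 2 libraries. Fam3c led with r of 0.753 in AAV-TAU and 0.792 in AAV-STOP, followed by Ap3b1, Nfia, Xpr1 and Ddx5. For Rbpj the likeness was closer: Baz1a had r of 0.946 in AAV-TAU and 0.942 in AAV-STOP, followed by Fam91a1, Snx18, Slc29a3 and Zeb2os. None of these 10 genes is among the pathway genes listed here. These values describe 14 classes that share 2 libraries and carry no test.

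In the other classes the split of higher and lower calls over all genes also moved with scaling. With the median gene set equal between libraries, the counts were 503 higher and 84 lower in CA1-like neurons (740 and 32 without), 573 and 286 in CA3-like neurons (867 and 155), and 703 and 272 in inhibitory neuron-like nuclei (971 and 142). They were 707 and 349 in the subicular or cortical excitatory-like class (1079 and 161) and 1336 and 809 in oligodendrocyte-like nuclei (1595 and 579).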

How the data were processed

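Single-nucleus RNA-seq of hippocampus gave 1 library per group, each a pool of 3 mice. The authors deposited, for each barcode, raw counts (UMIs) of every gene, made with Cell Ranger 8.0.1 per the file headers. The submitters' processing notes name Cell Ranger 4.0 and Seurat 4.4.0. Whether introns and strand were used in counting is not given in the sources used here. A sample with a further vector form was not analysed here.

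Barcodes with at least 500 UMIs, 300 genes and at most 5% mitochondrial UMIs were kept. Doublets were marked from simulated pairs of nuclei in each library (2186 in AAV-TAU, 2506 in AAV-STOP) and removed. Nuclei were clustered on 3000 variable genes and 30 principal components with leidenalg 0.10.2 at resolution 1 (finer clusters at resolution 2), and 32 of 53 clusters were named from marker genes. The naming thresholds were set after the data were seen. UMIs were summed per class and library and expressed as CPM, with 95% exact Poisson intervals, exact conditional binomial intervals for ratios, and log2 differences after adding 5 CPM. Total counts are in the report, and intervals cover counting error only. With 1 library per group no test was made. The calculations, in Python 3.11.15 with numpy 2.4.6, scipy 1.17.1 and pandas 2.3.3, were tested on simulated data.

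The members and the gene lists were chosen with earlier results of these data known. Beyond the members, list genes past 1.2-fold were named, up to 3 per direction and class by size of the log2 difference. Alternatives were scaling by median of ratios, other clusterings, doublets kept, depth floors and thinning, other pseudocounts and minimums; nuclei with at most 0.2% mitochondrial UMIs and clustering without the 10 members were added after seeing the data.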

Additional observations from a re-analysis of the deposited data

Results flagged for a closer look

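Maml2 and Maml3 had log2 differences (AAV-TAU over AAV-STOP) of opposite sign in different classes, each with a 95% counting interval on its own side of no difference. For Maml2 the value was -0.45 in granule-like neurons, -0.56 in the subicular or cortical excitatory-like class, -0.39 in CA3-like neurons and -0.88 in Cajal-Retzius-like neurons. In astrocyte-like nuclei it was 0.11, a ratio of 1.08 (1.015 to 1.150). That ratio was 1.03 with marked doublets kept. It was 1.03 (0.964 to 1.11) in the larger finer cluster, led by Atp13a4, an interval that included 1. For Maml3 the value was -0.15 in granule-like neurons, -0.18 in CA1-like neurons, -0.25 in inhibitory neuron-like nuclei, -0.41 in CA3-like neurons and -0.56 in astrocyte-like nuclei. In microglia-like nuclei it was 0.15, and -0.02 with nuclei thinned to 2000 UMIs. With 1 library per group the differences between classes were not tested.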

How the results depend on the processing

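The log2 difference of Maml2 in granule-like neurons lay between -0.54 and -0.39 under all 16 alternatives. It was -0.42, -0.54 and -0.39 inside the finer clusters led by Slc26a10, Stk32b and Mylk3, and -0.51 with scaling by median of ratios. The count of member and class pairs higher by 1.2-fold, 1 as reported, was 0 with a minimum of 50 CPM and with median of ratios. It was 2 with clustering without the 10 members, with at most 0.2% mitochondrial UMIs and with 2000 or more UMIs per nucleus, and 6 with thinned nuclei. With no minimum it was 28, and the lower pairs, 10 as reported, were 44. Under the other settings the lower pairs numbered 8 to 14, with 13 for thinned nuclei. Among the same 51 pairs, thinning left all 10 lower ones past 1.2-fold and added 6: Maml3 in CA1-like, inhibitory neuron-like and subicular or cortical excitatory-like nuclei, Maml2 in inhibitory neuron-like nuclei, Dll1 in oligodendrocyte precursor-like nuclei and Rbpj in CA2-like neurons. It also added 5 higher ones: Maml2 in immature neuron-like and CA2-like neurons, Rbpj in oligodendrocyte precursor-like and microglia-like nuclei, and Notch1 in astrocyte-like nuclei. The median of the pathway list under median of ratios was -0.031 in CA1-like neurons, -0.050 in granule-like neurons and -0.011 in inhibitory neuron-like nuclei. The cause of these moves was not tested. The other values were those of single genes in a class and the counts of list genes past 1.2-fold. Of these, 54 moved and 634 did not. The count of list genes higher moved under 6 of 13 alternatives in CA1-like neurons and in inhibitory neuron-like nuclei. Among the single genes, Maml2 in inhibitory neuron-like nuclei moved most often, under 3 of 11. No paired analysis was possible because each group has 1 library, which also leaves no replicate to leave out. Genes with few UMIs, such as Notch3 in neurons, could not be compared at this depth. Jag1 and Dll1 did not reach the minimum in any neuronal class, so no difference was called for them there.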
